A study of Mus musculus with 25 samples.

Results

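Bin1 and 9 further genes that lie at or near loci linked to the risk of Alzheimer's disease (AD) were followed in microglia sorted from mice that lack Bin1 in neurons. The 10 genes are Bin1, Picalm, Inpp5d, Plcg2, Abi3, Sorl1, Cd33, Ms4a6d, Abca7 and Spi1. The rule lists them by symbol and sets no threshold on a measured level, though the list was drawn up with earlier results of these data known. They were found by their Ensembl identifiers in the deposited counts table, where they make up 10 of 43411 genes. All 10 passed the filter on low counts and are among the 12908 genes tested.

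Bin1 encodes a BAR-domain protein that bends membranes and acts in endocytosis and recycling, and Picalm encodes an adaptor that helps clathrin to coat budding vesicles. Sorl1 encodes a receptor that sorts cargo between endosomes and the Golgi together with retromer. Plcg2, Inpp5d, Cd33 and Abi3 belong to the signalling that starts at immune receptors of microglia: PLCG2 and INPP5D act on membrane phosphoinositides, CD33 is an inhibitory receptor for sialic acid, and ABI3 belongs to the machinery that drives actin branching. Abca7 encodes a lipid transporter, Ms4a6d a membrane protein of the MS4A family, and Spi1 the transcription factor PU.1, which sets up much of the myeloid program.

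RNA was sequenced from CD11b+; CD45med microglia of 23 mice aged 3 months, each with its own library, to ask what neuronal loss of Bin1 does to the cells around the neurons. The groups were 10 homozygous mice with Bin1flox/flox and Thy1-Cre+ (Homo-cKO; 5 females and 5 males), 7 heterozygous mice with Bin1flox/wt and Thy1-Cre+ (Het-cKO; 4 females and 3 males) and 6 controls with Bin1flox/wt and Thy1-Cre- (WT; 2 females and 4 males), all from a cross of B6.129S6-Bin1tm2Gcp/J with FVB/N-Tg(Thy1-cre)1Vln/J. The WT mice therefore also carry 1 floxed Bin1 allele, the homozygous mice carry a second one, and Cre is present in both cKO groups but not in WT mice. The Thy1 promoter drives Cre in forebrain excitatory neurons, so that microglia are not the intended site of the deletion and Bin1 in these libraries is no check of the knockout. Another 2 labelled mice, a WT female and a heterozygous male, have no column and were not analysed here.

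Total counts per mouse ranged from 10812969 to 16734846. All 10 microglial markers, P2ry12, Tmem119, Cx3cr1, Csf1r, Sall1, Aif1, Itgam, Fcrls and C1qa among them, were detected in every group, with a summed level of 55780 to 92088 counts scaled to a common library size (CPM). WT and heterozygous mice all carry animal numbers of the form 02xx, and homozygous mice carry 03xx (6 mice) or 04xx (4 mice), so that homozygosity and number range cannot be told apart. In 4 homozygous mice, F1, F2, M1 and M2, all numbered 03xx, the summed immediate early genes (Fos, Egr1, Jun and 7 more) stood at 8643 to 13019 CPM, against 578 to 993 CPM in the other 6 and 441 to 609 CPM in WT and heterozygous mice. Of 9 immediate early genes tested 8 were higher in homozygous than in WT mice, where 12.7% of all genes passed in either direction. The 4 of smallest p were Egr1 (log2 fold change 7.02), Fos (8.75), Ier2 (4.45) and Atf3 (0.94). Bulk libraries cannot separate fewer cells of a type from less RNA per cell. The paper calls the WT mice littermates of the cKO mice. Nothing in the labels says which mice shared a litter or a sorting day. The p-values therefore set each difference against the spread between mice as sampled.

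In homozygous mice, 2 of the 10 genes were lower than in WT mice, Bin1 and Plcg2, and Cd33 was higher. Over all genes, 12.7% passed the same test, edgeR's quasi-likelihood test at an adjusted p below 0.05, or 1645 genes with 730 higher and 915 lower. With a fold change above 1.5 added, Bin1 alone remained, where 3.4% of all genes passed. The median log2 fold change of the 10 genes was -0.04, beside 0.01 over all genes tested. Against heterozygous mice, Bin1, Plcg2 and Cd33 again passed, where 22.7% of all genes did, and 0 of the 10 passed with the fold added, where 6.62% did. These comparisons share the homozygous mice and are not independent of each other.

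Between heterozygous and WT mice, 0 of the 10 genes passed, and 0% of all genes did by edgeR, with or without the fold. At an unadjusted p below 0.05 stood 0 of the 10 genes and 998 of all genes. DESeq2 called 3 genes and limma-voom 0, none of them among the 10. The median log2 fold change of the 10 genes was 0.02.

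**Figure D1:**
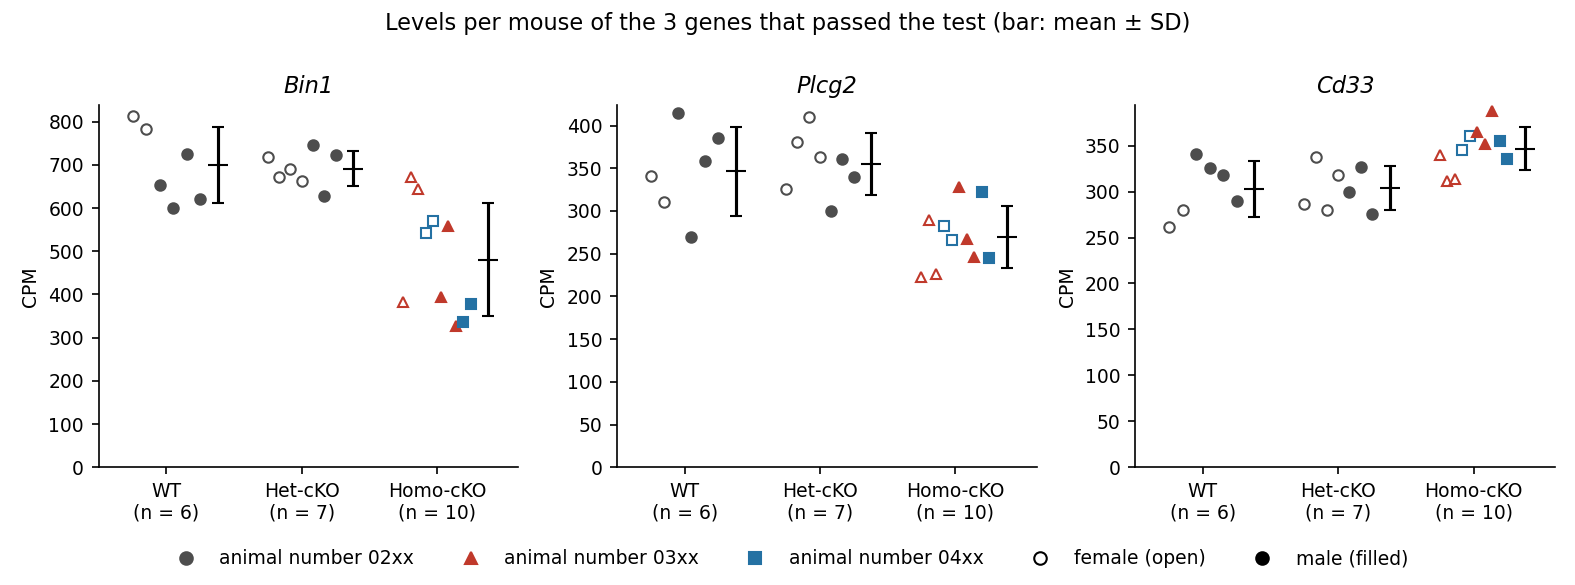
Level of Bin1, Plcg2 and Cd33 in CPM (vertical axis, from 0) in each of 23 mice by genotype, with open symbols for females, filled symbols for males, shapes for the animal number range, and bars for mean ± SD. In homozygous mice, 8 of 10 lie below every other mouse for Bin1, 6 of 10 for Plcg2, and 6 of 10 lie above every other mouse for Cd33.

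Bin1 (ENSMUSG00000024381, mm10 chromosome 18, 32377230 to 32435737, plus strand) was the most changed of the 10 genes. The level in WT mice ranged from 600 to 814 CPM with a median of 689, in heterozygous mice from 629 to 747 with a median of 691, and in homozygous mice from 327.6 to 673 with a median of 469. The homozygous females F1 to F5 had 383, 673, 644, 542 and 570 CPM, and the homozygous males M1 to M5 had 395, 559, 327.6, 337 and 379 CPM. Thus 8 of 10 were lower than every WT and heterozygous mouse, with females F2 and F3 inside their range, and no homozygous mouse lay between 395 and 542 CPM.

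Mean Bin1 was 699 ± 88.3 CPM in WT (SD, n = 6), 692 ± 40.6 in heterozygous (n = 7) and 481 ± 130.2 in homozygous mice (n = 10). In homozygous mice Bin1 fell by 33.9% from WT, a log2 fold change of -0.60 (SE 0.12, 95% interval -0.84 to -0.36; adjusted p = 0.0017, edgeR). Against heterozygous mice the log2 fold change was -0.53 (SE 0.11, interval -0.76 to -0.30; adjusted p = 0.0015). The spread between mice was widest in the homozygous group, with a coefficient of variation of 27.1%, against 5.87% in heterozygous and 12.6% in WT mice.

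For heterozygous against WT mice the log2 fold change of Bin1 was -0.07 (SE 0.13), and its 95% interval reached from -0.33 to 0.19, or from 0.796-fold to 1.14-fold. A change within that interval is not excluded by these mice. The homozygous difference passed in all 16 fits that left out 1 mouse against WT and in all 17 against heterozygous mice. It passed with homozygous mice numbered 03xx alone (log2 fold change -0.53; adjusted p = 0.012) and 04xx alone (-0.67; adjusted p = 0.00097). It failed to pass in females alone, where 2 WT and 5 homozygous mice gave -0.505 (SE 0.15; adjusted p = 0.16), and passed in males alone at -0.71 (adjusted p = 0.014). Against heterozygous mice the difference was -0.29 in females alone (SE 0.13, adjusted p = 0.16, edgeR), which did not pass. In males alone it was -0.80 (SE 0.14, adjusted p = 0.011, edgeR).

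The mice with high immediate early genes were not set apart by Bin1. F1, F2, M1 and M2 had 383, 673, 395 and 559 CPM, which covers most of the range of the group. Without these 4 mice, an alternative added after the data were seen, the log2 fold change against WT was -0.66 (SE 0.11; adjusted p = 0.0012) and 2 of the 10 genes passed, Bin1 and Plcg2. Without them all genes passing numbered 1062 in place of 1645.

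Other markers moved with genotype beside Bin1. The marker counts against WT here and in the next paragraph stand beside 12.7% of all genes passing. Of the microglial markers, 7 of 10 were lower in homozygous than in WT mice and 0 higher. Itgam, which encodes the CD11b used for the sort, was at -0.61 (adjusted p = 0.00079, edgeR). Sall1, Aif1 and Fcrls did not pass. Scaled by library totals alone, 6 of the 10 were lower and 0 higher. The 10 neuronal markers summed to 12.3 to 38.1 CPM in WT, 14.4 to 32.7 in heterozygous and 4.89 to 9.21 in homozygous mice, with 4 of 7 tested lower, Snap25 (log2 fold change -2.52; adjusted p = 9.0e-05), Nrgn (-2.76), Nefl (-2.74) and Gad1 (-3.13). The 6 oligodendrocyte markers summed to 179 to 253, 183 to 229 and 153 to 209 CPM. Of 5 of them tested 2 were lower and 0 higher, with Mobp among the lower (-1.69; adjusted p = 0.022). On library totals alone 1 of these 5 was lower and 0 higher. Monocyte and neutrophil markers summed to 4.63 to 20.2, 4.43 to 29.0 and 11.8 to 56.0 CPM. Of 4 of them tested 1 was higher, Ccr2 (1.28; adjusted p = 0.00081), and 0 lower. Sums over chosen markers do not measure how much RNA of the 10 genes such cells bring. The part of these cells in the levels of the 10 genes was not tested.

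Markers of astrocytes, endothelial cells and border macrophages overlapped between the groups, with sums of 209 to 310, 36.6 to 82.0 and 5.23 to 50.8 CPM over all mice. Of 4 astrocyte genes tested 1 was lower in homozygous than in WT mice, Aldoc (-1.61; adjusted p = 0.0062). On library totals alone 1 of these 4 was lower and 1 higher. Slc1a3, which made up most of the astrocyte sum, had a median of 250 CPM in WT and 275 in homozygous mice. Of 2 endothelial genes tested 1 was lower, Pecam1 (-0.49; adjusted p = 0.021), and 0 of 5 border macrophage genes passed. Lymphocyte markers summed to at most 0.598 CPM. The table lists Gad2, Cldn5, Mrc1, Nkg7 and Btg2 at 0 in every mouse, and also Actr3, which nearly every cell uses, so that a listed 0 was not read as absence.

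Plcg2 (ENSMUSG00000034330, mm10 chromosome 8, 117498291 to 117635142, plus strand) encodes the phospholipase that turns signals of immune receptors, TREM2 among them, into second messengers. Its level ranged from 269 to 414 CPM in WT mice with a median of 350, from 300 to 410 in heterozygous mice with a median of 361, and from 222.2 to 327.6 in homozygous mice with a median of 267. The groups overlapped: 6 of 10 homozygous mice were under every WT and heterozygous mouse, and 8 of 10 under every heterozygous mouse. Means were 346 ± 52.0, 355 ± 36.4 and 269.6 ± 36.6 CPM (SD; n = 6, 7 and 10). Plcg2 fell by 21.8% from WT to homozygous mice, a log2 fold change of -0.35 (SE 0.09; adjusted p = 0.015), and by 24.3% from heterozygous mice (-0.40, SE 0.09; adjusted p = 0.0027).

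The lower Plcg2 level was less secure than that of Bin1. It rested in part on WT mouse M1, the highest at 414 CPM, without which the log2 fold change was -0.30 and the adjusted p 0.059. It did not pass against WT with the 04xx mice alone (-0.31; adjusted p = 0.11), nor in females (-0.34; adjusted p = 0.21) or males alone (-0.35; adjusted p = 0.17). Against heterozygous mice it did not pass in males alone (-0.24; adjusted p = 0.38) or with the 04xx mice alone (-0.34; adjusted p = 0.050). The value kept its sign throughout, between -0.42 and -0.25 over 29 alternatives. Between heterozygous and WT mice it was 0.05 (SE 0.10, interval -0.17 to 0.26).

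Cd33 (ENSMUSG00000004609, mm10 chromosome 7, 43524216 to 43544428, minus strand) was the gene that rose. Its level ranged from 262 to 341 CPM in WT mice with a median of 304, from 276 to 337 in heterozygous mice with a median of 300.0, and from 311 to 388 in homozygous mice with a median of 349. Here 6 of 10 homozygous mice lay above all others, and the remaining 4 lay inside the range of the controls. Means were 303 ± 30.2, 304 ± 24.1 and 347 ± 23.3 CPM (SD; n = 6, 7 and 10). Cd33 was 15.9% higher than in WT mice, a log2 fold change of 0.21 (SE 0.06; adjusted p = 0.026), and 13.4% higher than in heterozygous mice (0.18, SE 0.06; adjusted p = 0.028).

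The call for Cd33 was the least stable of the 3. It passed in 19 of 29 alternatives against WT, and was lost without homozygous mouse M3 (adjusted p = 0.052), WT F1 (0.11), WT F2 (0.072) or WT M4 (0.075), and without a filter on low counts (0.074). Against heterozygous mice it was lost without heterozygous F1 (adjusted p = 0.052), F3 (0.054), M1 (0.060) or M4 (0.087) and without homozygous F5 (0.051), and without a filter on low counts (0.069). It did not pass in either sex or either number range alone, nor without the mice high in immediate early genes (adjusted p = 0.061). Its direction was the same in each of these fits, between 0.17 and 0.31 against WT. Over the 23 mice Cd33 moved against Bin1 (Pearson r = -0.76 in log2 CPM, given as a description), and r was -0.40 once the means of genotype and sex were taken out.

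The stretches of 250 bases before the transcription start were read for the called genes Plcg2 and Cd33 and for Inpp5d, the member that opposes phosphoinositide signalling, since Spi1 is itself one of the 10 genes and PU.1 and its ETS relatives bind a core of GAGGAA. They are RefSeq promoters of GRCm38.p6, which has the coordinates of mm10, written 5′ to 3′ in the strand of the gene, with that core in capitals. Positions are chr8:117498025-117498274 (plus strand) for Plcg2, chr7:43533172-43533421 (minus strand) for Cd33 and chr1:87620062-87620311 (plus strand) for Inpp5d. The Cd33 window belongs to a RefSeq start that lies inside the counted gene model, downstream of its 5′ end at 43544428.
Plcg2: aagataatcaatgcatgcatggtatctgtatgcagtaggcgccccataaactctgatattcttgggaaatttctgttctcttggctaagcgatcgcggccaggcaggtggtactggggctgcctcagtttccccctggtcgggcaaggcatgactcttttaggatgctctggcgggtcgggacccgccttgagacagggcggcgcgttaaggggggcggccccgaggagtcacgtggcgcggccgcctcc
Cd33: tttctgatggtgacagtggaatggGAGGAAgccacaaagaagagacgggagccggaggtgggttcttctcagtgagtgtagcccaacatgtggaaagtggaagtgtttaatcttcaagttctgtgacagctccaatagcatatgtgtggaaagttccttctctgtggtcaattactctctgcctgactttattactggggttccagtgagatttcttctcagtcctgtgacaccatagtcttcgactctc
Inpp5d: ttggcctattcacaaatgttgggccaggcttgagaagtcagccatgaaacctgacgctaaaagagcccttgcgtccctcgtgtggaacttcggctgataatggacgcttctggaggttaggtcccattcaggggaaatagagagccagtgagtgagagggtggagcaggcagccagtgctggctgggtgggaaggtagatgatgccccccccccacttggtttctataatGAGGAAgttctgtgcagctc
The Inpp5d stretch holds 1 core, which begins 20 bases before the start, Cd33 holds 1, which begins 226 bases before the start, and Plcg2 holds none on either strand. Of the 10 genes 6 were in the promoter table, with 7 windows, and 3 of the 6 (Inpp5d, Cd33 and Picalm) hold the core or its reverse TTCCTC. Among all 32851 promoters of this length, 23.3% do. The match describes the letters only, and whether the core goes with a change in level was not tested. Inpp5d itself did not pass the test in any comparison.

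**Figure D2:**
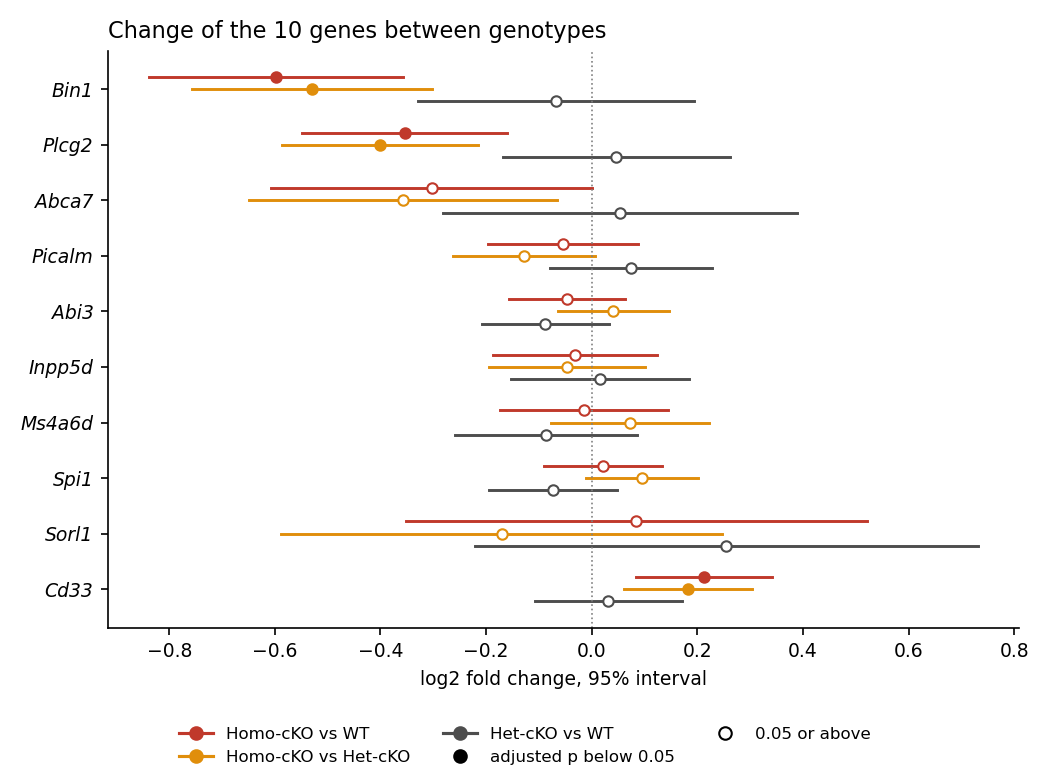
Log2 fold change (horizontal axis) with its 95% interval for each of the 10 genes and 3 comparisons from edgeR's fit of 23 mice. Filled points, Bin1, Plcg2 and Cd33 in both comparisons with homozygous mice, passed at an adjusted p below 0.05, and all heterozygous against WT points are open.

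Inpp5d (ENSMUSG00000026288, mm10 chromosome 1, 87620312 to 87720507) encodes the phosphatase SHIP, which acts on the products of PI3-kinase. Its level ranged from 808 to 1171 CPM in WT, 964 to 1180 in heterozygous and 876 to 1160 in homozygous mice, with medians of 1112, 1104 and 1045. No homozygous mouse lay outside the range of the others. The log2 fold change from WT to homozygous mice was -0.03 (SE 0.08, interval -0.19 to 0.12; adjusted p = 0.84), and it changed sign under another scaling, so that no direction is given.

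Abca7 (ENSMUSG00000035722, mm10 chromosome 10, 79996494 to 80015572) had 29.4 to 46.3 CPM in WT mice with a median of 37.1, 30.2 to 47.4 in heterozygous mice with a median of 38.4, and 19.7 to 45.2 in homozygous mice with a median of 28.8. Of the homozygous mice 5 of 10 lay below every other mouse and the other 5 within the controls. The log2 fold change was -0.30 against WT (SE 0.15; adjusted p = 0.19) and -0.36 against heterozygous mice (SE 0.14, interval -0.65 to -0.06; unadjusted p = 0.019 in edgeR's fit, adjusted p = 0.070). Neither passed.

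The comparison of Abca7 with heterozygous mice turned on single mice. It passed without heterozygous M1 (-0.43; adjusted p = 0.038), without homozygous M1 (-0.42; adjusted p = 0.027) and without the 4 mice high in immediate early genes (-0.45; adjusted p = 0.044). In females alone it was -0.63 (SE 0.12; adjusted p = 0.0071) and in males alone -0.02 (SE 0.23; adjusted p = 0.98). A test of the difference between the sexes was made against WT mice only and gave 0.26 (SE 0.29; adjusted p = 0.995).

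Picalm (ENSMUSG00000039361, mm10 chromosome 7, 90130213 to 90213465) had 238 to 304 CPM in WT mice, 255 to 316 in heterozygous mice and 216.5 to 326 in homozygous mice, with medians of 260, 285 and 258. Of the homozygous mice 3 lay below and 1 above all others. The log2 fold change was -0.05 against WT (SE 0.07, interval -0.20 to 0.09; adjusted p = 0.67) and -0.13 against heterozygous mice (SE 0.07; adjusted p = 0.16).

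Spi1 (ENSMUSG00000002111, mm10 chromosome 2, 91082390 to 91115756) was the steadiest of the 10 genes in WT mice, with a coefficient of variation of 4.16%. It had 420 to 472 CPM in WT, 388 to 461 in heterozygous and 407 to 507 in homozygous mice, with medians of 434, 416 and 442. The log2 fold change was 0.02 against WT (interval -0.09 to 0.13) and 0.10 against heterozygous mice (interval -0.01 to 0.20; adjusted p = 0.19), where it passed on library totals alone (0.16; adjusted p = 0.033).

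Ms4a6d (ENSMUSG00000024679, mm10 chromosome 19, 11586604 to 11604849) had 123 to 149 CPM in WT, 114 to 145 in heterozygous and 105 to 167 in homozygous mice, with medians of 139, 131 and 136. The log2 fold change was -0.01 against WT (SE 0.08, interval -0.17 to 0.14) and 0.07 against heterozygous mice (SE 0.07; adjusted p = 0.51). Of its exonic stretches of 25 bases, 11.3% recur in other genes, 6.23% in Ms4a6b, so that reads between these copies may have been split.

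Abi3 (ENSMUSG00000018381, mm10 chromosome 11, 95830074 to 95842476) had 615 to 773 CPM in WT, 621 to 691 in heterozygous and 611 to 757 in homozygous mice, and its log2 fold changes of -0.05 (interval -0.16 to 0.06) and 0.04 (interval -0.06 to 0.15) did not pass. Its level is uncertain, since exons of Zfp652, Phospho1 and Gngt2 lie on the opposite strand of the same bases, 71.2% of its 25-base sequences are shared with them, and the library kit does not mark strand. An antisense RNA, A830052D11Rik, overlaps Bin1 as well, with 5.64% of the Bin1 sequences shared and 444 counts over all mice.

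Sorl1 (ENSMUSG00000049313, mm10 chromosome 9, 41964720 to 42124297) had the lowest level per kb of the 10 genes and the widest spread between mice, relative to the mean, in each genotype. It had 18.5 to 39.3 CPM in WT mice with a median of 35.6, 32.4 to 49.4 in heterozygous mice with a median of 38.7, and 17.9 to 66.1 in homozygous mice with a median of 32.7. The homozygous mice fell on both sides of the WT range, 1 below and 3 above. The log2 fold change was 0.08 against WT (SE 0.21, interval -0.35 to 0.52) and -0.17 against heterozygous mice (SE 0.20, interval -0.59 to 0.25). Against WT the interval runs from 0.784-fold to 1.43-fold, and a change within it is not excluded.

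Within the homozygous group, Sorl1 was compared between the animal number ranges. The 6 mice numbered 03xx, F1 to F3 and M1 to M3, had 29.5, 19.4, 23.9, 34.7, 30.6 and 17.9 CPM, and the 4 numbered 04xx, F4, F5, M4 and M5, had 35.4, 41.5, 66.1 and 40.8 CPM. The ranges did not overlap, though M4 stood far above the other 04xx mice, with means of 26.0 ± 6.68 and 45.9 ± 13.7 CPM (SD). A two-sided exact permutation test over the 210 splits gave p = 0.0095, the smallest such a design allows, and 0.095 after adjustment over the 10 genes. The next were Ms4a6d, at 128 ± 12.9 and 150.4 ± 14.0 CPM (exact p = 0.038, adjusted 0.19), and Spi1 (exact p = 0.067, adjusted 0.22). Only the 10 genes were compared in this way. How many of all genes separate the number ranges is not known, so that Sorl1 is not called unusual.

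Bin1, at 497 ± 147 and 457 ± 116 CPM in the 2 number ranges (exact p = 0.64), Plcg2 (exact p = 0.51) and Cd33 (exact p = 0.74) showed no difference beyond the spread between mice. With 03xx mice alone, Sorl1 was at -0.53 against heterozygous mice (adjusted p = 0.030), and with 04xx mice alone at 0.29 (adjusted p = 0.34). Against WT mice the values were -0.31 (adjusted p = 0.27) and 0.52 (adjusted p = 0.11).

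**Figure D3:**
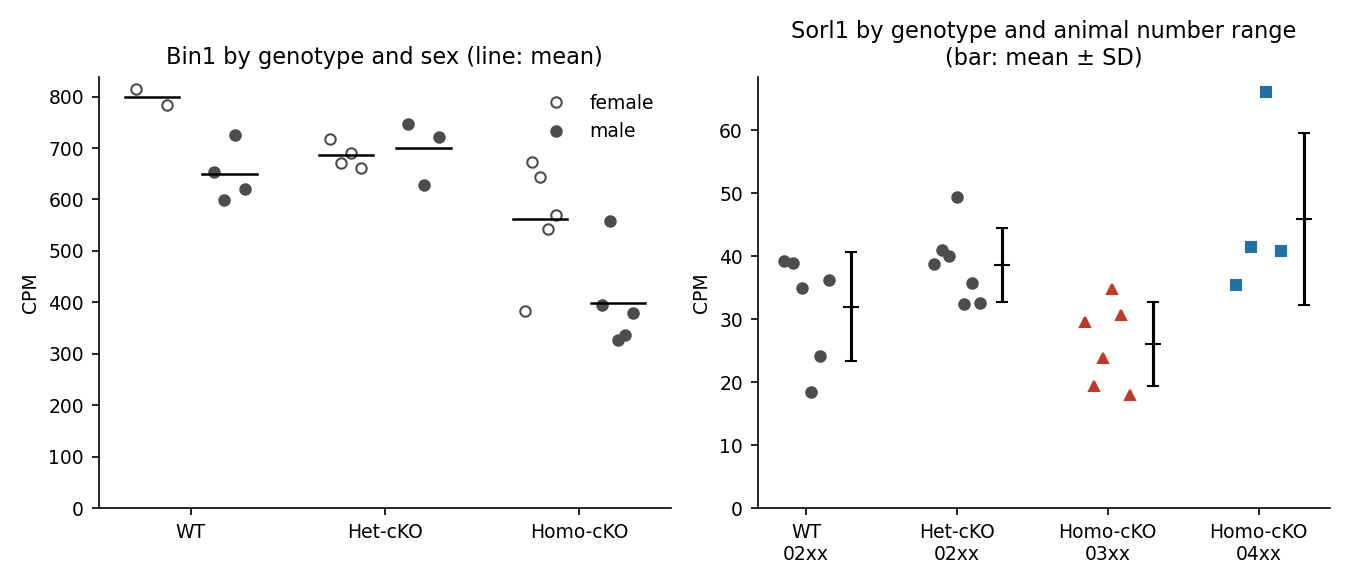
Left, Bin1 in CPM by genotype with females as open and males as filled points and lines at the means. Right, Sorl1 in CPM by genotype and animal number range with bars for mean ± SD, where the 6 homozygous mice of range 03xx (17.9 to 34.7 CPM) lie below the 4 of range 04xx (35.4 to 66.1 CPM).

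By sex, Bin1 and Picalm had the lowest unadjusted p of the 10 genes, and neither passed over all genes. Bin1 was at 799 ± 22.0 CPM in WT females (n = 2) and 649 ± 54.5 in WT males (n = 4), at 686 ± 24.8 and 699 ± 62.1 in heterozygous females (n = 4) and males (n = 3), and at 562 ± 113 and 399 ± 93.4 in homozygous females and males (n = 5 each). The male mean lay below the female mean in WT and homozygous mice and above it in heterozygous mice. The log2 difference, male minus female, was -0.28 for Bin1 (SE 0.10) and -0.17 for Picalm (SE 0.06), both with an adjusted p of 0.75, and 11 genes, 0.0852% of all, passed. The change with sex of the difference between homozygous and WT mice was tested, and not that against heterozygous mice. Here 0 of the 10 genes and 0% of all genes passed in edgeR's fit (644 of all at an unadjusted p below 0.05). The widest of the 10 was Sorl1, at 0.80 (SE 0.41; adjusted p = 0.98), and Bin1 stood at -0.20 (SE 0.22).

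Per kilobase of exon sequence, the 10 genes spanned levels from 170 to 2.83 CPM per kb in WT mice. Bin1 (169.8 ± 21.5), Abi3 (164 ± 13.9) and Spi1 (163 ± 6.76) stood together at the top, at about the 98th percentile of tested genes (98.3, 98.2 and 98.2). Their order was not fixed: Bin1 lay above Abi3 in 4 of 6 WT mice and Abi3 above Spi1 in 3 of 6. Inpp5d (140.3 ± 18.4) lay below Spi1 in 6 of 6 mice, and Plcg2 (80.6 ± 12.1) and Ms4a6d (79.2 ± 5.19) could not be ordered, with Plcg2 higher in 4 of 6. Below them, in the same order in all 6 mice, came Cd33 (39.0 ± 3.88), Picalm (16.9 ± 1.58), Abca7 (5.64 ± 1.06) and Sorl1 (2.83 ± 0.761 CPM per kb). Not divided by length, mean Ms4a6d (137 CPM) stood below Cd33 (303) and Picalm (265) in WT mice, so that the order depends on the length used. In homozygous mice Bin1 stood at 117 ± 31.6 CPM per kb, below Abi3 (160.4 ± 9.67), Spi1 (165 ± 10.6) and Inpp5d (137 ± 12.2).

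**Figure D4:**
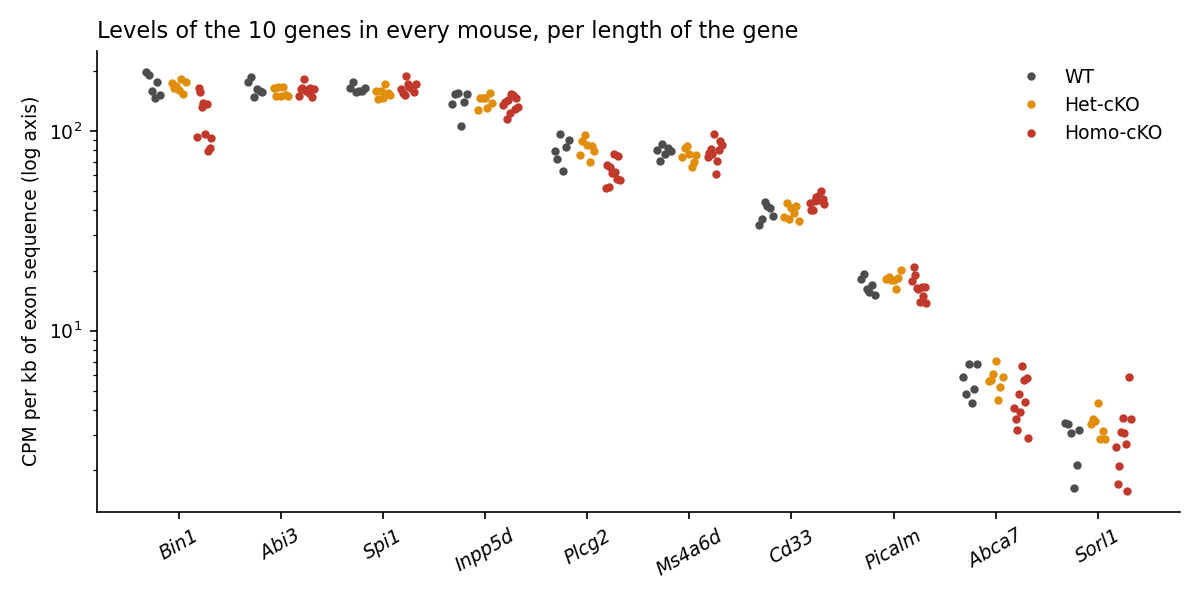
Level per kb of exon sequence (vertical axis, CPM per kb, log scale) of the 10 genes in each mouse, ordered by the WT mean and coloured by genotype. Bin1, Abi3 and Spi1 lead at 163 to 170 CPM per kb in WT mice and Sorl1 is lowest at 2.83.

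Of 30 other genes at AD risk loci 22 were tested. For this and the following lists, the counts against WT stand beside 12.7% of all genes passing, and those against heterozygous mice beside 22.7%. Nothing is called particular to a list. On library totals alone 2340 genes passed against WT, 1772 of them higher, with a median log2 fold change of 0.11 over all genes. On that scaling 3273 genes passed against heterozygous mice, 2173 of them higher. Of the 22 genes, 3 were lower and 0 higher in homozygous than in WT mice. The median log2 fold change over the list was -0.08, and 0.02 on library totals alone. Trem2, the receptor upstream of PLCG2, stood at 2360 ± 154 CPM in WT, 2294 ± 168 in heterozygous and 1707 ± 281 in homozygous mice (-0.48, SE 0.09; adjusted p = 0.0010). Tspan14, a tetraspanin that partners with ADAM10, was at -0.36 (adjusted p = 0.0028), and Cass4, a scaffold of focal adhesions, at -0.29 (adjusted p = 0.033), a call lost on library totals alone (adjusted p = 0.13). Against heterozygous mice, where 22.7% of all genes passed, 6 were lower and 1 higher, or 3 and 2 on library totals alone.

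In the signalling between immune receptors and phosphoinositides, where Plcg2 and Inpp5d act, 2 of 22 genes were lower and 1 higher in homozygous than in WT mice. The lower ones were Trem2 and Vav1, a Rac activator (-0.25; adjusted p = 0.031), which did not pass on library totals alone (adjusted p = 0.11). The median over the list was 0.03. On library totals alone 6 were higher and 1 lower, so that the balance of this list, like that over all genes, depends on the scaling.

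Among clathrin coat genes and adaptors, 2 of 16 were higher and 0 lower, or 5 and 0 on library totals alone. Among them was Dab2, a cargo adaptor that rose from 16.2 ± 3.31 CPM in WT and 18.8 ± 3.53 in heterozygous to 30.1 ± 7.99 in homozygous mice (0.89, SE 0.17; adjusted p = 0.0014). Of 15 retromer and sorting genes tested 4 were higher and 1 lower with a median of 0.10, or 6 and 1 with a median of 0.20 on library totals alone. Snx3 (0.29; adjusted p = 0.0060) and the retromer subunit Vps29 (0.26; adjusted p = 0.0074) were higher, and Sort1, a receptor of the same family as Sorl1, was lower (-0.43, SE 0.10; adjusted p = 0.0070).

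Of 11 ABC lipid transporters tested, 4 were lower and 0 higher, also under both other scalings, with a median of -0.30 beside 0.01 over all genes. Against heterozygous mice 5 were lower and 1 higher. Abcg1, which exports cholesterol to lipoproteins, went from 159 ± 23.3 CPM in WT to 111 ± 16.3 in homozygous mice (-0.49, SE 0.09; adjusted p = 0.0010). Abcg2, a drug exporter, stood at -0.30 (adjusted p = 0.0058). Abca7 itself did not pass.

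Of 8 genes tested in the list of Siglecs, which also holds Sirpa, 1 was higher and 1 lower. The median log2 fold change of this list was -0.12 (-0.01 on library totals alone), with 2 of the 8 above 0. Cd22, an inhibitory receptor of the same family as Cd33, rose from 7.60 ± 2.20 to 14.7 ± 5.74 CPM (0.97, SE 0.24; adjusted p = 0.0093). Of 6 MS4A family genes tested 1 was higher and 2 lower, with Ms4a6c at 0.36 (adjusted p = 0.022), Tmem176b at -0.35 (adjusted p = 0.0051) and Tmem176a at -0.36 (adjusted p = 0.0077). Of 15 genes of the WAVE complex and Rac 1 was higher and 3 lower, and the gene that also passed the fold was Wasf1, at 0.986 ± 0.741 CPM in WT and 0.219 ± 0.227 in homozygous mice (adjusted p = 0.038), a level of few counts. On library totals alone 4 were higher and 2 lower. Of 20 partners and targets of PU.1 3 were higher and 4 lower, with a median of 0.03 (7 higher and 4 lower, median 0.12, on library totals alone), and with Itgam (-0.61) and Jun (3.23), itself an immediate early gene, passing the fold. Against heterozygous mice, higher and lower genes numbered 4 and 4 in immune receptor signalling, 2 and 1 among clathrin genes and 5 and 1 among retromer genes. They numbered 1 and 2 among Siglecs, 1 and 1 in the MS4A family, 4 and 3 for WAVE and Rac and 5 and 5 for PU.1. In heterozygous against WT mice 0 genes of these 9 lists passed by edgeR.

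Over the 23 mice, the genes whose log2 CPM followed Bin1 most closely were Fhl3 (Pearson r = 0.86), Hlf (0.82), Zfp69 (0.82), Cyb5r3 (0.80) and Creld2 (0.80), of 8786 genes compared. With the means of genotype and sex taken out they were Zfp69 (0.78), Zfp691 (0.77), Fhl3 (0.75), Iqcc (0.72) and Nfkbil1 (0.72). These values describe 23 mice that share the genotype groups, and carry no test. Fhl3 was below the range of the other groups, 14.5 to 23.8 CPM, in 6 homozygous mice, at 1.86 to 3.48 CPM. The 5 homozygous mice lowest in Bin1 were all among these 6. Since Fhl3 was picked for its high r with Bin1 over these same mice, such an overlap follows in part from that choice. The part of this difference in the Bin1 level was not tested. Of the other 9 risk genes Picalm was the closest, at 0.61 and 0.47, while Plcg2, lower in the same group, was at 0.49 and -0.05.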

How the data were processed

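RNA sequencing of FACS-sorted microglia from 23 mice was analyzed. The authors used OmicSoft OSA4 to place single-end reads on mm10, took genes from Ensembl R84, and deposited RSEM expected counts per gene, normalized neither for depth nor for length. How reads in several places were shared is not given in the sources used here. Expected counts were rounded to whole numbers, and 42929 of 43411 identifiers were matched to GENCODE vM21 (GRCm38). Genes were kept by filterByExpr (12908), normalized by TMM and tested with edgeR 4.0.16 (quasi-likelihood, R 4.3.3), with genotype and sex in 1 fit over all mice and Benjamini-Hochberg adjustment over all genes tested. SEs came from the fold change and the F statistic. CPM are counts over the TMM-normalized library size, as scaled by the cpm function of edgeR. Total counts had a median of 13477985, which limits genes of few CPM. Single values within homozygous mice were compared with exact permutation tests in scipy. The fit was tested on simulated data.

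The members, gene lists and tests were chosen with earlier results of these data known. All 10 genes are named. From each list, genes are named that passed both thresholds against WT, up to 4 by p, otherwise up to 3 that passed adjusted p. Some genes that this rule names are not reported here. Sall1, Aif1, Fcrls and the genes listed at 0 are named as well, after their values were seen. Genes like Bin1 are the 5 with the highest r at a mean log2 CPM of at least 3. Alternatives were DESeq2 1.42.0, limma-voom (limma 3.58.1), other scalings and filters, no sex term, the 2 groups alone, each sex or number range alone and each mouse left out. 1 was added after seeing the data.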

Additional observations from a re-analysis of the deposited data

Results flagged for a closer look

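In 2 of 30 groups checked, 10 genes in 3 genotypes, 1 mouse stood apart from its group by Dixon's 95% criterion, which chance exceeds in about 1 of 20 groups. Abi3 in homozygous female F4 was at 756.9 CPM, against 611.3 to 683.8 CPM in the other 9 homozygous mice (gap over range 0.502, critical value 0.466). Sorl1 in homozygous male M4 was at 66.06 CPM, against 17.91 to 41.51 CPM in the other 9 (0.510, critical value 0.466). Without M4 the log2 fold change of Sorl1 against WT went from 0.08 to -0.10 and against heterozygous mice from -0.17 to -0.33, and neither passed. The cause was not tested in either case. Neither Bin1, Plcg2 nor Cd33 had such a mouse in any group.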

How the results depend on the processing

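No paired analysis was possible because the animal numbers are unique to each mouse. Of the alternatives run for the 10 genes, 256 of 290 against WT kept direction and side of the threshold, 15 lost the call and 19 changed sign. Between heterozygous and WT mice 16 of 230 changed sign and no other changed side. Between homozygous and heterozygous mice 275 of 300 kept direction and side, 14 lost and 6 gained a call and 5 changed sign. No sign change touched Bin1, Plcg2 or Cd33 in a comparison with homozygous mice. For what follows the cause was not tested, beyond the smaller number of mice where some are left out.

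DESeq2 called 3 genes between heterozygous and WT mice. On library totals alone higher genes made up 75.7% of calls against WT, in place of 44.4%, and 66.4% against heterozygous mice, in place of 48.6%, as the median of all genes moved to 0.11 and 0.06. The values for Picalm (0.0469), Inpp5d (0.0706), Abi3 (0.0488) and Ms4a6d (0.0901) against WT, and for Inpp5d (0.0201) against heterozygous mice, then turned positive. With the 2 groups fitted alone Abca7 was at -0.0065 between heterozygous and WT mice.

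In females alone 38 genes passed against WT (0.185% with the fold), with 0 of the 10 genes, and 1513 against heterozygous mice (3.15%). Bin1 was at -0.5050 and -0.2854. Against WT, Sorl1 (-0.3795), Ms4a6d (0.1017) and Spi1 (-0.0296) changed sign, and between heterozygous and WT mice Picalm (-0.0435), Inpp5d (-0.0368) and Ms4a6d (0.0686). In males alone 401 genes passed against WT (1.58% with the fold) and 402 against heterozygous mice (2.15%), with 1 of the 10 each. Inpp5d (0.0337) and Abi3 (0.0103) changed sign against WT, Inpp5d (0.0180) and Sorl1 (0.1867) against heterozygous mice, and Bin1 (0.0914), Plcg2 (-0.1119), Cd33 (-0.0952) and Abca7 (-0.1727) between heterozygous and WT mice.

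With 03xx mice alone Sorl1 (-0.3101) and Spi1 (-0.0173) changed sign against WT and Ms4a6d (-0.0225) against heterozygous mice. With 04xx mice alone 806 genes passed against WT and 1433 against heterozygous mice (4.14% with the fold), with 1 of the 10 each, and Ms4a6d (0.1241, WT) and Sorl1 (0.2878, heterozygous) changed sign. Without the 4 mice high in immediate early genes 1062 genes passed against WT and 1898 against heterozygous mice (3.97% with the fold), and Ms4a6d was at 0.0896 against WT.

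Leaving out 1 mouse at a time gave 1060 (without WT M1) to 1638 genes against WT and 0 to 1 between heterozygous and WT mice. Signs changed for Inpp5d (-0.0997 to 0.0022), Sorl1 (-0.1020 to 0.1589) and Ms4a6d (-0.0661 to 0.0246) against WT, and between heterozygous and WT mice for Inpp5d (-0.0502 to 0.0507), Plcg2 (-0.0135 to 0.0971), Cd33 (-0.0097 to 0.0666) and Abca7 (-0.0104 to 0.1301). At 30 to 40 CPM, Abca7 and Sorl1 had the widest intervals of the 10 genes.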

Other observations

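Of the 5 genes closest to Bin1 once genotype and sex means were taken out, 4 lie on mm10 chromosome 4 between 119169513 and 129619099, where the ends are set by these genes themselves. Of the 8786 genes compared, 6.58% lie on that chromosome and 79, or 0.899%, inside this stretch. Only the 4 named are described mouse by mouse or by range here. Fhl3, which encodes a LIM-domain protein, had 14.5 to 23.3 CPM in WT and 15.5 to 23.8 CPM in heterozygous mice. In homozygous mice it was at 2.49, 23.2, 21.6, 18.7 and 2.61 CPM in females F1 to F5 and at 1.86, 21.1, 2.63, 2.92 and 3.48 CPM in males M1 to M5, with no mouse in between. Bin1 was at 383 and 570 CPM in F1 and F5 and at 395, 327.6, 337 and 379 CPM in M1, M3, M4 and M5, the 6 mice with low Fhl3, and at 673, 644, 542 and 559 CPM in F2, F3, F4 and M2.

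Zfp691, a zinc finger gene of the same stretch, had 67.8 to 79.8 CPM in WT mice and 58.3 to 92.6 CPM in heterozygous mice. In homozygous mice it was at 28.6 CPM in F1, 25.2 in M1, 36.3 in M3 and 17.8 in M4, and at 63.3 to 76.6 CPM in the other 6. The 4 mice low in Zfp691 are among the 5 lowest in Bin1. Neither gene passed between homozygous and WT mice (Fhl3 -1.07, SE 0.46, adjusted p = 0.14; Zfp691 -0.46, SE 0.24, adjusted p = 0.22, edgeR). Zfp69, of the same stretch, was at 34.5 to 72.1 CPM in homozygous, 57.8 to 73.7 in WT and 57.3 to 76.6 in heterozygous mice. Iqcc, the last of the 4, showed no such gap, at 10.2 to 18.5, 13.1 to 17.0 and 10.7 to 18.3 CPM. All these values come from the same mice that ranked the genes, so that a match with Bin1 follows in part from that choice.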
